A study of Homo sapiens with 27 samples.

Results

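MYC and 9 genes of nucleolar ribosome biogenesis (NPM1, NCL, NOLC1, GNL3, FBL, NOP56, NOP58, DKC1 and NOP2) were followed in RM82 cells, an Ewing sarcoma cell line, after a splicing kinase inhibitor or its vehicle. The members were all transcripts whose identifier carries 1 of these 10 gene symbols in GENCODE, which gave 120 of the 93530 transcripts listed in the 6 libraries and 10 of 18776 genes. The study developed unique molecular identifiers (UMIs) built from repeated bases for counting RNA molecules, and used the inhibitor to create a splicing difference. One group of 3 libraries came from RM82 cells given SGC-CLK-1, an inhibitor of the CDC-like kinases that phosphorylate splicing factors, and the other group of 3 from RM82 cells given dimethylsulfoxide (DMSO), both for 24 h. All 6 libraries came from this 1 unmodified line, and the dose of SGC-CLK-1 is not given in the sources used here. The study states in general that its experiments were repeated as independent experiments, while the labels do not tie each library of a group to a separate culture, and the p-values measure the spread between these libraries.

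The total count was 666702, 362826 and 373004 in SGC-CLK-1 libraries 1 to 3, and 416352, 523456 and 372876 in DMSO libraries 1 to 3. Of 10 Ewing sarcoma markers, 9 had counts, and CCND1 was the most abundant of them. Over the 6 libraries CCND1, BCL11B and KDSR had 1464, 1373 and 890 counts, and CD99 and STEAP1 had 335 and 221. NR0B1, LIPI, PAX7 and PRKCB had only 20, 31, 53 and 55. NKX2-2, a defining marker, had no counts in any library. Summed over the 10 markers, the level was 1587, 1742 and 1536 CPM (counts per 1000000 counts of the library) with SGC-CLK-1 and 1621, 1496 and 1934 CPM with DMSO, so the groups overlapped. Of 12 plasma cell markers, the lineage of another line in the series, 7 were at 0 in all 6 libraries, among them the plasma cell genes SDC1 and TNFRSF17. Their sum, mostly CD38, lay between 61.7 and 89.8 CPM.

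The nucleolus is where ribosomal RNA is transcribed, modified and joined with ribosomal proteins. MYC is a transcription factor that, as a dimer with MAX, binds E-box DNA and is known to raise the transcription of ribosome-making genes, many nucleolar members among them. NPM1 (nucleophosmin), NCL (nucleolin) and NOLC1 are abundant nucleolar proteins that help to assemble and move ribosomal precursors. FBL, NOP56 and NOP58 are core proteins of the box C/D particles that methylate ribosomal RNA, guided by small nucleolar RNAs (snoRNAs), and several of these genes carry snoRNAs in their own introns.

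Some transcripts described below differ by an exon or an intron, and 2 such stretches are shown so that the transcripts can be told apart by their sequence. The first is NPM1 exon 8 of the MANE Select transcript ENST00000296930 (the reference transcript agreed between annotation groups), at chr5:171400839-171400925 of GRCh38 on the plus strand. It has 87 bases, that is 29 codons in frame, and ENST00000351986 lacks it. Capitals mark the exon and the lower case letters mark 15 bases of the neighbouring coding exons.
NPM1 exon 8: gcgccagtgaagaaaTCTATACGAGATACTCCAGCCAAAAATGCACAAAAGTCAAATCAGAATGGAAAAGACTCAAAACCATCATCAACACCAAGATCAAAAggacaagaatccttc
Words of 20 bases from this exon also occur on the same strand in transcripts of other genes in GENCODE. This held for 68 of its 68 words, over 41 other genes. A read that covered only these bases could therefore align elsewhere.

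The second is the intron of GNL3 that stays in ENST00000496254, annotated as a retained-intron transcript. It spans 240 bases at chr3:52690705-52690944 on the plus strand and holds the box C/D snoRNA SNORD19B, 84 bases at chr3:52690744-52690827, in capitals.
GNL3 intron: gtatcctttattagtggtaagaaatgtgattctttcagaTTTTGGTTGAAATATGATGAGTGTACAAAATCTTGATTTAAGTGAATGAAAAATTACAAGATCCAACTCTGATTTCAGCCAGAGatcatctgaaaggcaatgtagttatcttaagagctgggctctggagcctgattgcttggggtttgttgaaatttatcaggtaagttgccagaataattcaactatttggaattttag

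The E-box CACGTG, which reads the same on both strands, was searched in RefSeq promoter windows of 300 bases (GRCh38.p14, 250 before and 50 after the transcription start). Of the 9 nucleolar members, 7 had windows in the table, and 3 of these 7 genes (GNL3, NOP2 and FBL) held the motif. Counted by window, since GNL3 and NPM1 have 2 each, the motif was in 3 of 9 member windows (33.3%), beside 7.26% of all 35116 windows, and the other GNL3 window had none. NPM1, NCL, NOP56 and DKC1 had no match, which says only that these letters are not in these windows. NOP58 and NOLC1 had no entry. In each of the 3 genes the motif lay just after the start, with its first base at position 7 of GNL3, 36 of NOP2 and 7 of FBL, counted from 1 at the start. The matches stand in capitals at chr3:52686026-52686055 on the plus strand, chr12:6568242-6568268 on the minus strand and chr19:39846356-39846385 on the minus strand.
GNL3: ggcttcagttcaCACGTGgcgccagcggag
NOP2: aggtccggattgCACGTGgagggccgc
FBL: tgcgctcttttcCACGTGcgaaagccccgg

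Gene sums, the counts of all transcripts of a gene added up, were compared first, to ask whether MYC and the nucleolar genes moved between the treatments. MYC was the member with higher values in the inhibitor libraries, and 8 of the 9 nucleolar genes had lower fitted values. None of the 10 passed an adjusted p of 0.05 in edgeR's quasi-likelihood test, where 15 of 6344 genes did (0.236%). At an unadjusted p under 0.05 in edgeR, 2 members (NPM1 and NOP56) were lower and none was higher, beside 6.97% of all genes tested that were lower and 6.89% that were higher. DESeq2 called 1 member at an adjusted p under 0.05, NPM1, and 107 of the 6344 genes (1.69%). A negative log2 fold change was found for 8 of the 10 members and for 50.1% of all genes tested. Over the 9 nucleolar genes the median log2 fold change was -0.34, and it was -0.0012 over all genes tested. RNA was taken in bulk, so a lower level cannot be told apart from fewer cells that express the gene.

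**Figure D1:**
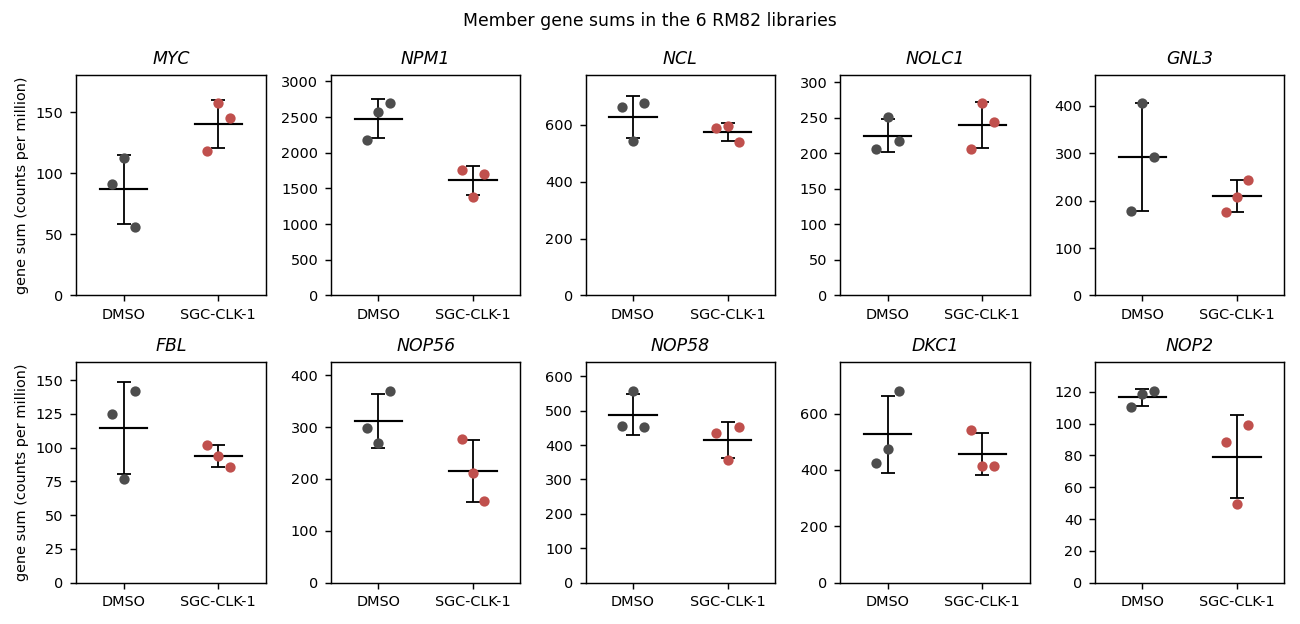
Gene sums of MYC and the 9 nucleolar genes in CPM (vertical axes, each from 0) for the 3 DMSO (grey) and 3 SGC-CLK-1 (red) libraries. Points are libraries, and horizontal lines and error bars are the mean and SD (n = 3). MYC sits at 118 to 157 in the SGC-CLK-1 libraries and at 56.3 to 113 in the DMSO libraries, and NPM1 at 1381 to 1752 and at 2174 to 2693.

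MYC (ENSG00000136997) lies at chr8:127735434-127742951 on the plus strand. Its gene sum was 118, 157 and 145 CPM in SGC-CLK-1 libraries 1 to 3 and 91.3, 113 and 56.3 CPM in DMSO libraries 1 to 3. The 3 SGC-CLK-1 libraries were all higher than the 3 DMSO libraries, and DMSO library 3, with 21 counts, was the lowest. The means were 140.1 ± 19.7 and 86.8 ± 28.5 CPM (SD, n = 3 each), a log2 fold change of 0.59 ± 0.29 (standard error), with an adjusted p of 0.378 in edgeR's test. Over 14 alternative settings the log2 fold change of MYC stayed between 0.38 (without DMSO replicate 3) and 0.83 and the adjusted p between 0.255 and 0.677. Groups that did not overlap with higher inhibitor values were found for 12.2% of all genes tested.

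NPM1, the most abundant member per kilobase, had the lowest p of the 10. The gene (ENSG00000181163) lies at chr5:171387116-171411810 on the plus strand. Its gene sum was 1752, 1381 and 1705 CPM with SGC-CLK-1 and 2174, 2568 and 2693 CPM with DMSO. All 3 inhibitor libraries were below all 3 DMSO libraries. The means were 1613 ± 202 and 2478 ± 271 CPM (SD, n = 3 each), and the log2 fold change was -0.70 ± 0.18 (standard error), with an adjusted p of 0.0981 in edgeR's test. In 2 of 14 alternatives NPM1 passed 0.05, with an adjusted p of 0.0121 in DESeq2 and of 0.033 in edgeR when only its most abundant transcript was counted. The log2 fold change lay between -0.81 and -0.60 over all 14, and the adjusted p between 0.0121 and 0.323.

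Of the other nucleolar proteins, NCL and NOLC1 differed little. Nucleolin, which binds ribosomal RNA precursors (NCL, ENSG00000115053, chr2:231453531-231483641, minus strand), had 589, 595 and 539 CPM with SGC-CLK-1 and 663, 544 and 676 CPM with DMSO. These ranges overlapped, and the fitted log2 fold change was -0.20 ± 0.19, with an adjusted p of 0.693 in edgeR, and it was -0.12 without DMSO replicate 3 and -0.078 with the most abundant transcript only. NOLC1, a snoRNA particle chaperone (ENSG00000166197, chr10:102152176-102163871, plus strand), had 205, 270.1 and 244 CPM with SGC-CLK-1 and 207, 250.3 and 217 CPM with DMSO. Here too the libraries overlapped, and the log2 fold change of 0.0082 ± 0.21 changed sign in 4 alternatives. GNL3 (nucleostemin, a nucleolar GTPase, ENSG00000163938, chr3:52681156-52694497, plus strand) had 177, 207 and 244 CPM with SGC-CLK-1 and 178, 405 and 292 CPM with DMSO. Its DMSO libraries were the most unequal of any member relative to their mean, with an SD of 114 CPM around a mean of 292 CPM, and DMSO library 1 lay within the inhibitor range. The log2 fold change was -0.57 ± 0.28, with an adjusted p of 0.385 in edgeR, and without DMSO replicate 2 it was -0.26.

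The 3 box C/D proteins all had lower fitted values with SGC-CLK-1, and none passed the adjusted threshold. FBL (fibrillarin, the methyltransferase of the particle, ENSG00000105202, chr19:39834458-39846379, minus strand) had 102, 93.7 and 85.8 CPM with SGC-CLK-1 and 125, 76.4 and 142 CPM with DMSO. DMSO library 2 was the lowest of all 6, so the groups overlapped. FBL had a log2 fold change of -0.34 ± 0.29, with an adjusted p of 0.664 in edgeR, and it moved to -0.58 without DMSO replicate 2 and to -0.13 without DMSO replicate 3. NOP56 (ENSG00000101361, chr20:2652593-2658393, plus strand) had 277, 212 and 158 CPM with SGC-CLK-1 and 298, 269 and 370.1 CPM with DMSO. Only SGC-CLK-1 library 1 reached into the DMSO range. NOP56 had a log2 fold change of -0.59 ± 0.25, with an adjusted p of 0.301 in edgeR. NOP58 (ENSG00000055044, chr2:202265736-202303661, plus strand) had 433, 356 and 453.1 CPM with SGC-CLK-1 and 453.9, 558 and 453.2 CPM with DMSO. Its groups did not overlap, but SGC-CLK-1 library 3 and DMSO library 3 were almost equal. The log2 fold change was -0.31 ± 0.20, with an adjusted p of 0.519 in edgeR.

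DKC1 (dyskerin, the pseudouridine synthase of the box H/ACA particles, ENSG00000130826, chrX:154762742-154777689, plus strand) had 541, 413 and 416 CPM with SGC-CLK-1 and 425, 474 and 681 CPM with DMSO. SGC-CLK-1 library 1 was higher than DMSO libraries 1 and 2, and DMSO library 3 was the highest. The fit for DKC1 gave a log2 fold change of -0.28 ± 0.23, with an adjusted p of 0.649 in edgeR. This value rested on single libraries, being -0.027 without DMSO replicate 3, -0.44 without DMSO replicate 1 and -0.44 without SGC-CLK-1 replicate 1. NOP2, a methyltransferase of large-subunit ribosomal RNA (ENSG00000111641, chr12:6556863-6568691, minus strand), had 88.5, 49.6 and 99.2 CPM with SGC-CLK-1 and 110.5, 118 and 121 CPM with DMSO. The DMSO libraries were close together and all above the inhibitor libraries, of which library 2 was far the lowest with 18 counts. NOP2 had a log2 fold change of -0.62 ± 0.30, with an adjusted p of 0.374 in edgeR. It was -0.40 without SGC-CLK-1 replicate 2, and -1.43 with the most abundant transcript only, which passed the filter through the DMSO libraries alone. In all, 3 members (NPM1, NOP58 and NOP2) were lower in every SGC-CLK-1 library than in every DMSO library, as were 7.66% of all genes tested.

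**Figure D2:**
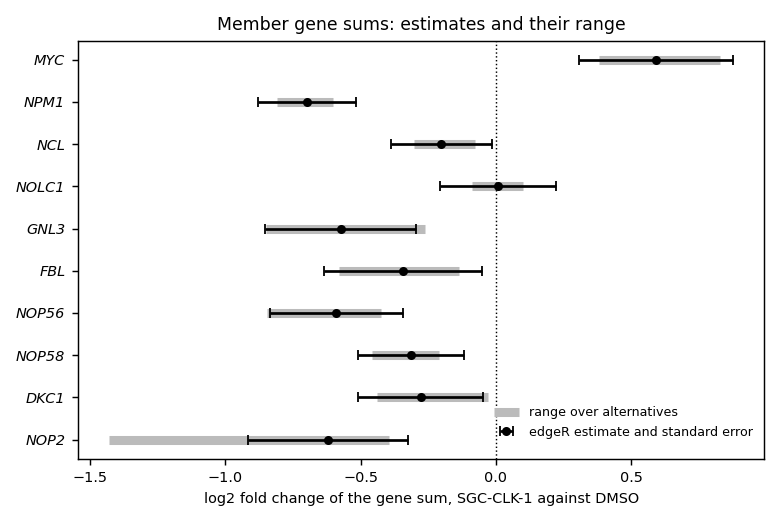
Log2 fold changes of the gene sums, SGC-CLK-1 against DMSO (horizontal axis), for the 10 members. Black points and bars are edgeR's estimate and standard error, and grey bars span the estimates over 14 alternative settings. MYC lies right of 0, at 0.59, NOLC1 lies at 0.0082, and the other 8 members lie left of 0, down to -0.70 for NPM1.

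Levels were also ordered per kilobase of the MANE Select transcript. In the DMSO libraries NPM1 was the highest, with 1877 ± 205 CPM per kilobase (SD, n = 3). NOP58 (245 ± 30.2), DKC1 (213 ± 55.1), NOP56 (163 ± 27.1), NCL (160.0 ± 18.5), GNL3 (151 ± 58.8) and FBL (102 ± 30.3 CPM per kilobase) followed, and each of these overlapped the next. NOLC1 had 60.3 ± 6.12, NOP2 43.98 ± 2.02 and MYC 23.3 ± 7.65 CPM per kilobase, and these 3 did not overlap their neighbours. With SGC-CLK-1, MYC (37.7 ± 5.30) and NOP2 (29.8 ± 9.85 CPM per kilobase) overlapped, while DKC1 and NOP56, NCL and GNL3, and GNL3 and FBL no longer did, and NCL (146 ± 7.91) stood above NOP56 (113 ± 31.2 CPM per kilobase), with overlap. The order depends on dividing by length. In CPM without this division, the DMSO mean of NCL (628 ± 72.4) stood above those of DKC1 (527 ± 136) and NOP58 (488 ± 60.2 CPM). NOLC1 (225 ± 22.8) then stood above FBL (114 ± 34.1 CPM), without overlap. The order also depends on summing transcripts, on which 1 molecule may be counted more than once. Counting the MANE Select transcript alone, NOP56 (42.9 ± 6.06) had a lower DMSO mean than NCL (91.0 ± 10.6), FBL (75.9 ± 24.6) and GNL3 (48.9 ± 22.5 CPM per kilobase).

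At the level of transcripts, 28 of the 120 member transcripts had enough counts to be tested, and 22 of these 28 had a negative log2 fold change. Over all 7840 transcripts tested the median log2 fold change was -0.0058. The 22 are not separate results, since several transcripts of a gene had parallel counts, described below. The sign of NOP2 ENST00000545200, among the 22, was set by the filter on low counts. In edgeR's test 1 of the 28 passed an adjusted p of 0.05, as did 310 of 7840 transcripts tested (3.95%). Of the 28, 7 were lower in every SGC-CLK-1 library and 2 were higher, beside 11.7% and 11.3% of all transcripts tested. Of those 7, 4 are transcripts of NPM1, and 1 (NOP2 ENST00000545200) passed the filter on low counts through the DMSO libraries alone. The 2 that were higher are both transcripts of MYC with nearly equal counts, and so are not separate results.

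The call was NPM1 ENST00000351986, which lacks exon 8. It had 366, 309 and 357 CPM in SGC-CLK-1 libraries 1 to 3 and 483, 571 and 587 CPM in DMSO libraries 1 to 3. The inhibitor libraries were all below the DMSO libraries. Its log2 fold change was -0.66 ± 0.19 (standard error), with an adjusted p of 0.0474 in edgeR, and it passed 0.05 in 3 of 12 alternatives, with adjusted p between 0.0326 and 0.278. Over these 12 the log2 fold change lay between -0.74 and -0.57. The transcript with exon 8, ENST00000296930, had 597, 469 and 584 CPM with SGC-CLK-1 and 742, 875 and 920 CPM with DMSO. It was lower in the same way, by a log2 fold change of -0.61 ± 0.19, with an adjusted p of 0.0691 in edgeR. ENST00000351986 held between 61.0% and 65.9% of the count of ENST00000296930 in the 6 libraries. ENST00000517671 held between 95.1% and 98.5% of that count, with a log2 fold change of -0.60 ± 0.19 and an adjusted p of 0.072 in edgeR.

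A different last exon marks ENST00000393820, which had 129, 88.2 and 145 CPM with SGC-CLK-1 and 151, 138 and 164 CPM with DMSO. SGC-CLK-1 library 3 reached into the DMSO range, and the log2 fold change was -0.30 ± 0.23, with an adjusted p of 0.545 in edgeR, and -0.11 without SGC-CLK-1 replicate 2. ENST00000524204, a short retained-intron transcript of NPM1, had 67.5, 49.6 and 37.5 CPM with SGC-CLK-1 and 69.7, 109 and 126 CPM with DMSO. The groups did not overlap, although SGC-CLK-1 library 1 and DMSO library 1 were close. The log2 fold change of this transcript was -0.91 ± 0.28, with an adjusted p of 0.0593 in edgeR, and of 0.0497 with the replicate number as a block. The usage test, which asks whether a gene's transcripts changed unequally, gave NPM1 an adjusted p of 1.0 over its 5 transcripts.

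**Figure D3:**
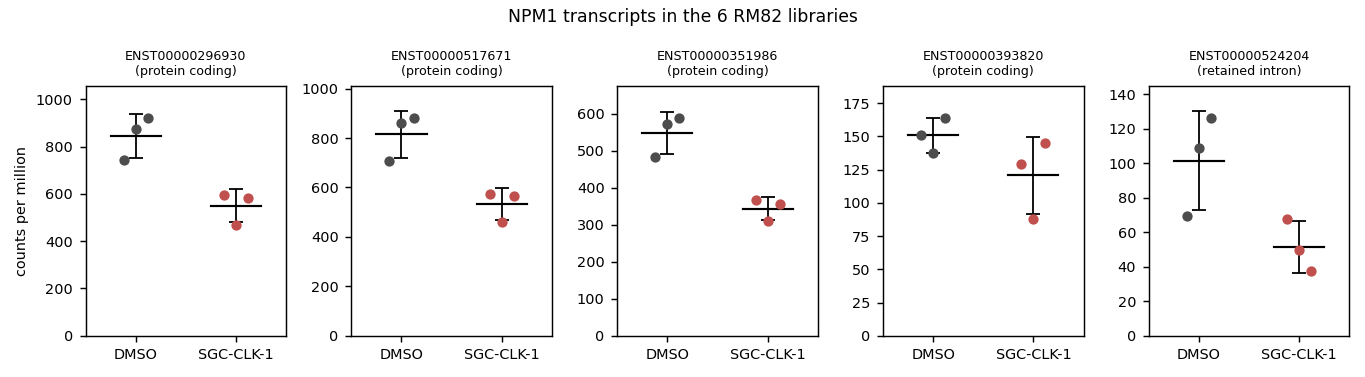
Levels in CPM (vertical axes, each from 0) of the 5 tested NPM1 transcripts in the 3 DMSO (grey) and 3 SGC-CLK-1 (red) libraries. Points are libraries, and lines and error bars are the mean and SD (n = 3). ENST00000351986 sits at 309 to 366 with SGC-CLK-1 and at 483 to 587 with DMSO, and ENST00000393820 is the transcript whose groups overlap.

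NOP2 ENST00000545200 passed the filter on low counts, a CPM of 25.3 in 3 libraries, through its 3 DMSO libraries alone, so a lower fitted value with SGC-CLK-1 was set by the filter and is given as a description. It was the 1 tested member transcript with no library of the other group past this level. It had 16.5, 13.8 and 5.36 CPM with SGC-CLK-1 and 26.4, 36.3 and 40.2 CPM with DMSO, that is 11, 5 and 2 counts against 11, 19 and 15. The fitted log2 fold change was -1.41 ± 0.43 (standard error). NOP2's MANE Select transcript, ENST00000322166, had too few counts for that test. Its CPM was 21.0, 8.27 and 16.1 with SGC-CLK-1 and 16.8, 19.1 and 21.5 with DMSO, which overlapped (two-sided exact permutation p = 0.4, where 3 against 3 libraries cannot go below 0.1).

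The 2 MYC transcripts that were tested, ENST00000621592 and ENST00000377970, had the same count in 4 of the 6 libraries. Both passed the filter on low counts in 3 SGC-CLK-1 libraries and 1 DMSO library, so the filter favoured higher inhibitor values. The same held for NOLC1 ENST00000603946. NOP56 ENST00000651302 passed in 3 DMSO libraries and 1 SGC-CLK-1 library, where the filter favoured a lower value. ENST00000621592 had 33.0, 41.3 and 40.2 CPM with SGC-CLK-1 and 21.6, 28.7 and 13.4 CPM with DMSO, without overlap. Its log2 fold change was 0.77 ± 0.37, with an adjusted p of 0.265 in edgeR. Another MYC transcript, ENST00000524013, was below the filter and had 19.5, 24.8 and 21.4 CPM with SGC-CLK-1 and 14.4, 3.82 and 2.68 CPM with DMSO. All inhibitor libraries were higher, and the exact two-sided permutation p was 0.1, the smallest that this design allows. ENST00000652288 and ENST00000651626 of MYC overlapped between the groups, with 17.8 ± 1.13 against 19.1 ± 6.69 and 19.5 ± 3.91 against 17.5 ± 7.08 CPM (SD, n = 3 each).

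Several members showed counts that ran in parallel over their transcripts. In GNL3, ENST00000394799 held 95.7% to 105% and the retained-intron transcript ENST00000496254 held 90.0% to 109% of the count of the MANE Select transcript ENST00000418458 in the 6 libraries. The intron shown above was therefore not separated from the spliced form by these counts. In NOLC1, ENST00000370007 held 93.8% to 100% and ENST00000405356 held 90.5% to 113% of the count of ENST00000605788. In DKC1, the retained-intron transcript ENST00000620277, which contains SNORA56, held 85.8% to 97.2% of the count of ENST00000369550. The study kept up to 3 secondary alignments per read, so 1 molecule may be counted on several transcripts of its gene, and gene sums then exceed the number of molecules. NOP58 differed from these genes, since its second transcript ENST00000478508 held 19.4% to 35.4% of the count of ENST00000264279.

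For the remaining tested transcripts edgeR's adjusted p lay above 0.2. ENST00000264279 of NOP58 had 262, 232 and 295 CPM with SGC-CLK-1 and 334, 390 and 319 CPM with DMSO. These did not overlap, with a log2 fold change of -0.40 ± 0.20 and an adjusted p of 0.293 in edgeR. NOP56 ENST00000329276 had 70.5, 46.9 and 56.3 CPM with SGC-CLK-1 and 81.7, 70.7 and 93.9 CPM with DMSO. Again the inhibitor libraries were lower, here by a narrow margin, with a log2 fold change of -0.45 ± 0.26 and an adjusted p of 0.401 in edgeR. The 3 leading GNL3 transcripts had log2 fold changes of -0.58, -0.57 and -0.57, which were -0.15, -0.16 and -0.22 without DMSO replicate 2. NCL ENST00000322723 and its retained-intron partner ENST00000461347 had -0.05 and -0.17 (the latter -0.11 without SGC-CLK-1 replicate 3), and FBL ENST00000221801 had -0.21, with -0.48 to -0.063 when 1 library was left out. Of the 92 member transcripts below the filter, 34 reached 10 CPM in at least 1 library, and of these 5 were lower and 2 higher in every SGC-CLK-1 library than in every DMSO library. Over all 19769 transcripts chosen the same way, 5.6% were lower and 10.3% higher. The 5 that were lower are DKC1 ENST00000484317, NCL ENST00000494618, NOP2 ENST00000537442, NOP56 ENST00000467857 and NOP56 ENST00000415272. Of these, NOP2 ENST00000537442 and NOP56 ENST00000415272 reached 10 CPM in DMSO libraries alone. Choosing them by 10 CPM favoured lower inhibitor values, and they are given as a description. The 2 member transcripts that were higher are MYC ENST00000524013 and NOP58 ENST00000433543.

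The usage test could be run for 8 of the 10 members, those with 2 or more tested transcripts, and all 8 had an adjusted p of 1.0 in edgeR. Of all 1805 genes with such a test, 5 passed 0.05 (0.277%). The lowest unadjusted p of a member was 0.616, for NOLC1. Some of the transcripts compared, as in GNL3 and MYC, had parallel counts, described above. Between such transcripts the test could hardly find unequal change.

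The annotated class of the transcripts that carry a gene's counts differed widely among the members. Retained-intron transcripts, which keep an intron that the coding form removes, held 43.9 ± 2.11% of the DKC1 counts in the DMSO libraries, 36.7 ± 1.10% of the NCL counts and 32.8 ± 1.11% of the GNL3 counts (SD, n = 3), beside 9.34 ± 0.137% over all genes. Each of these 3 genes hosts snoRNA genes within its bounds in GENCODE, 2 in DKC1, 3 in NCL and 6 in GNL3. NOP56 hosts 5 and NOP58 hosts 4, with retained-intron shares of 2.95% and 3.74% in the DMSO libraries. Yet only 30.0% of the NOP56 counts there were on transcripts annotated as protein coding. The class without a defined coding sequence held 44.8%, and its transcript ENST00000492135 contains SNORD86 in an exon. A low retained-intron share in NOP56 is therefore not a high coding share. MYC, NPM1, FBL, NOLC1 and NOP2 host none, and MYC had 100% of its DMSO counts on transcripts annotated as protein coding. With SGC-CLK-1 the retained-intron share was 46.4 ± 2.85% in DKC1, 34.1 ± 1.65% in NCL and 33.5 ± 0.524% in GNL3. In NOP56 this share was 8.11%, 7.79% and 3.39% in SGC-CLK-1 libraries 1 to 3 and 2.42%, 4.26% and 2.17% in DMSO libraries 1 to 3. SGC-CLK-1 library 3 fell within the DMSO range. For NOP58 the means were 5.93 ± 1.81% with SGC-CLK-1 and 3.74 ± 0.435% with DMSO, and library 3 of the inhibitor again fell within the DMSO range. Because of the parallel counts described above, these shares are of alignments and not of molecules.

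NOP58 was the member whose protein-coding share was lower in every inhibitor library. The share was 60.6%, 65.1% and 65.1% in SGC-CLK-1 libraries 1 to 3 and 73.5%, 69.9% and 70.4% in DMSO libraries 1 to 3. The groups did not overlap (two-sided exact permutation p = 0.1, the smallest possible), as in 6.82% of the 3637 genes for which such a share was computed. The other 9 members overlapped. On the other side, transcripts that GENCODE marks for nonsense-mediated decay, the pathway that degrades RNA with early stop codons, held 7.96%, 8.53% and 8.28% of NOP58 counts with SGC-CLK-1 and 4.76%, 5.48% and 6.51% with DMSO. Most of these counts were on ENST00000433543, with 30.4 ± 5.12 CPM against 21.3 ± 3.93 CPM (SD, n = 3 each, two-sided exact permutation p = 0.1). This transcript had between 7 and 21 counts per library. Over all genes the same directions were seen without overlap. The protein-coding class held 75.6%, 75.7% and 75.8% of counts with SGC-CLK-1 and 76.3%, 76.1% and 76.4% with DMSO, and the decay class held 7.63%, 7.66% and 7.66% with SGC-CLK-1 and 7.48%, 7.50% and 7.57% with DMSO.

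**Figure D4:**
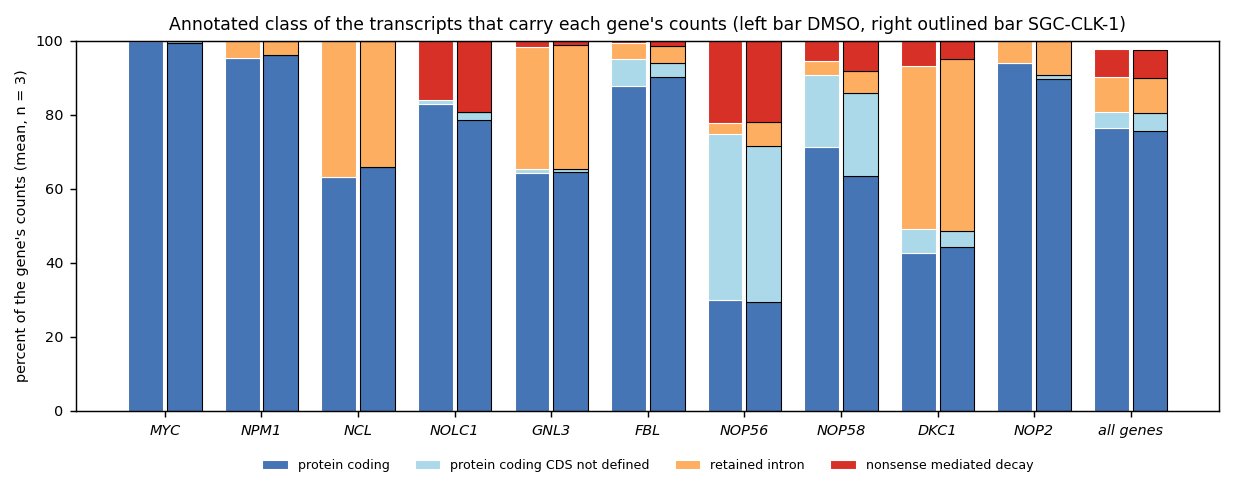
Mean percent of each gene's counts (vertical axis, n = 3 libraries) on transcripts of 4 annotated classes, for the 10 members and all genes, with DMSO on the left and SGC-CLK-1 on the right (outlined). The remainder of all genes belongs to other classes. Retained-intron transcripts hold 43.9% of DKC1 counts in DMSO libraries, and the protein-coding share of NOP58 is 71.3% with DMSO and 63.6% with SGC-CLK-1.

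The other genes of the pathway were taken from 4 lists, with 142 genes in all, of which 115 had enough counts for the test. None passed an adjusted p of 0.05 in edgeR, and 2 (MPHOSPH10 and ESF1, of the small-subunit list) did in DESeq2, where 1.69% of all genes passed. At an unadjusted p under 0.05 in edgeR, 17 of the 115 were lower with SGC-CLK-1 and 5 were higher, beside 6.97% and 6.89% of all genes tested. The median log2 fold change of the 115 was -0.10, with 64 below 0 and 51 above. The 5 higher genes and the 51 above 0 include URB2, whose direction was set by the filter on low counts, as described below.

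RNA polymerase I, which transcribes ribosomal RNA, had 11 of 15 genes tested, with 1 lower and 1 higher at an unadjusted p under 0.05 in edgeR and a median log2 fold change of 0.07. The gene for its activator UBTF had 73.5, 66.1 and 53.6 CPM with SGC-CLK-1 and 127, 147 and 118 CPM with DMSO, all inhibitor libraries being lower. Its log2 fold change was -1.08 ± 0.27, with an adjusted p of 0.0897 in edgeR. TAF1D, a subunit of the initiation factor SL1, had 367, 350.03 and 439.7 CPM with SGC-CLK-1 and 295, 252 and 223 CPM with DMSO. All inhibitor libraries were higher, and the log2 fold change was 0.51 ± 0.20, with an adjusted p of 0.27 in edgeR. POLR1C had a log2 fold change of -0.60 and POLR1A, the largest subunit, 0.60, with adjusted p of 0.448 and 0.408 in edgeR.

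Among partners of the snoRNA particles, 12 of 14 genes were tested, with 2 lower and none higher at an unadjusted p under 0.05 in edgeR and a median log2 fold change of -0.08. Those 2 were GAR1 and NHP2, which belong with dyskerin to the box H/ACA particle. GAR1 had 97.5, 55.1 and 48.3 CPM with SGC-CLK-1 and 168, 87.9 and 134 CPM with DMSO, where library 1 of the inhibitor overlapped. Its log2 fold change was -0.97 ± 0.34 (adjusted p = 0.2 in edgeR), and that of NHP2 was -0.86 ± 0.37 (adjusted p = 0.316 in edgeR). At the other end stood SHQ1, a dyskerin chaperone, with 0.32 and PIH1D1, a particle assembly factor, with 0.52.

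Assembly factors of the small subunit gave 41 of 55 genes tested, with 3 lower and 1 higher at an unadjusted p under 0.05 in edgeR and a median log2 fold change of -0.03. MPHOSPH10 had 57.0, 63.4 and 75.1 CPM with SGC-CLK-1 and 101, 172 and 150.2 CPM with DMSO. Its inhibitor libraries were all lower, with a log2 fold change of -1.21 ± 0.29 and an adjusted p of 0.0849 in edgeR. NGDN had -1.16 (adjusted p = 0.145 in edgeR). NAT10, an acetyltransferase of small-subunit ribosomal RNA, had 124, 99.2 and 107 CPM with SGC-CLK-1 and 60.05, 74.5 and 48.3 CPM with DMSO, all inhibitor libraries being higher, with a log2 fold change of 0.78 ± 0.29 and an adjusted p of 0.228 in edgeR. WDR75 had 0.55 (adjusted p = 0.533 in edgeR).

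For the large subunit, 51 of 58 assembly factors were tested, with 11 lower and 3 higher at an unadjusted p under 0.05 in edgeR and a median log2 fold change of -0.15. The 3 higher genes include URB2, described below, whose direction was set by the filter on low counts. PPAN had a log2 fold change of -1.47 ± 0.45 and RPF2 of -1.10 ± 0.30, with adjusted p of 0.142 and 0.12 in edgeR. LAS1L, part of a complex that cuts ribosomal RNA precursors, had 202, 218 and 161 CPM with SGC-CLK-1 and 91.3, 136 and 93.9 CPM with DMSO. It was higher in each inhibitor library than in any DMSO library, with a log2 fold change of 0.77 ± 0.25 and an adjusted p of 0.176 in edgeR. URB2 had 18, 18 and 10 counts with SGC-CLK-1 and 4, 5 and 2 with DMSO, and a fitted log2 fold change of 1.92. It passed the filter, here 27.2 CPM in 3 libraries, through the inhibitor libraries alone, so its direction was set by the filter. No other tested gene of the lists passed without a library of each group. PPAN came close, with 3 DMSO libraries and 1 inhibitor library past this level, so the filter favoured its lower value.

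Partners and antagonists of MYC were mostly too low for the test, which 5 of 11 genes entered, with none past an unadjusted p of 0.05 in edgeR. Their median log2 fold change was -0.37, with 4 of the 5 below 0. MAX, the dimer partner, had 109, 93.7 and 61.7 CPM with SGC-CLK-1 and 69.7, 99.3 and 80.5 CPM with DMSO. These overlapped, with a log2 fold change of 0.02 ± 0.30. MLX and the MYC antagonist MXI1 had log2 fold changes of -0.69 and -0.68, and MGA had -0.24, with adjusted p of 0.533, 0.419 and 0.781 in edgeR.

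**Figure D5:**
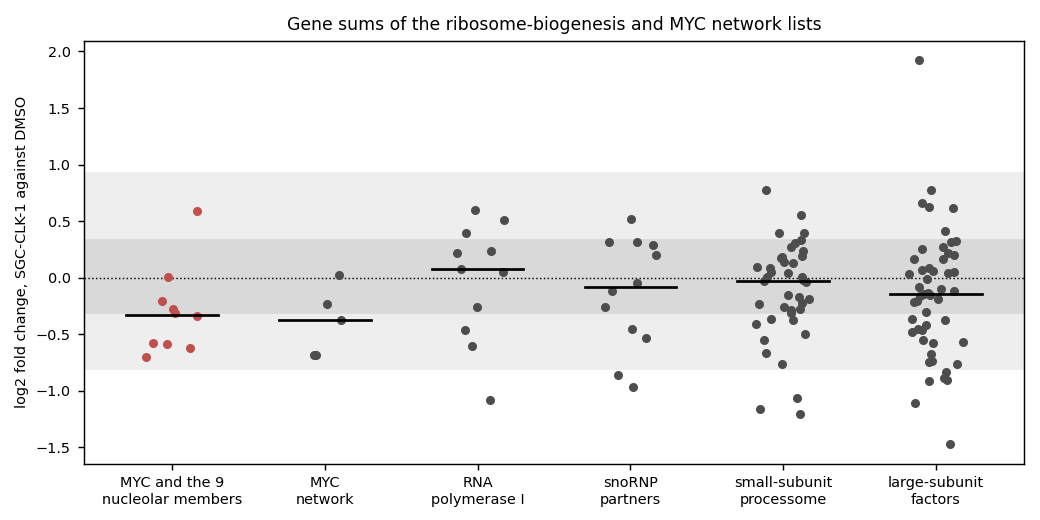
Log2 fold changes of gene sums, SGC-CLK-1 against DMSO (vertical axis), for the members (red) and the tested genes of 5 lists (dark grey), with the median of each as a black line. Light and dark bands hold the middle 90% and 50% of all genes tested, and the dotted line is their median. The median of the small-subunit list is -0.03 and that of the large-subunit list -0.15. The point at 1.92 is URB2, which passed the filter on low counts through the SGC-CLK-1 libraries alone.

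Processed pseudogenes, copies of spliced RNA in the genome, can take reads from their parents. GENCODE names 49 for NPM1, of which 17 had counts, 51 in all, equal to 0.918% of the NPM1 gene sum. NPM1P27 had 16 counts over the 6 libraries. NCL has 2, of which NCLP1 had 17 counts, or 1.05% of the NCL sum, and NOP56 and NOLC1 had 2 and 0 counts on such copies.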

How the data were processed

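The authors sequenced cDNA of RM82 cells as nanopore long reads (PromethION) and found the UMIs in the reads. They aligned reads to human transcripts (hg38, Ensembl 98) with minimap2, keeping up to 3 secondary alignments per read. They deposited raw counts of UMIs per transcript, 1 library per file, without normalization. The version of minimap2 in the submitters' processing notes is 2.22. Which way of collapsing UMIs made these counts is not given in the sources used here, and the labels' library protocol, shared by the whole series, names an Illumina kit, while in the study's methods transcript counts with minimap2 belong to the long reads. Totals were 362826 to 666702 counts per library, and their precision covers counting error only.

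Transcripts were matched to GENCODE 44 by identifier, which paired 86362 of 93530. Transcripts not listed in a library were set to 0. Counts of transcripts and of genes (sums) were tested in R 4.3.3 with edgeR 4.0.16: filterByExpr (minimum count 10, total 15), TMM, the quasi-likelihood F-test with group as the only term, and Benjamini-Hochberg adjustment over all features tested, with 0.05 as the threshold. Usage was tested with diffSpliceDGE. The steps were tested on simulated data. Groups came from the treatment labels. Alternatives were other scalings and filters, DESeq2 1.42.0, protein-coding or most abundant transcripts only, each library left out, and the replicate number as a block. Libraries of a group differed by more than counting noise. Molecules counted on several transcripts of a gene could also produce this, so no conclusion is drawn from it.

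The genes named are the 10 members, some of their transcripts past the filter or with 10 CPM in any library, the 2 highest and 2 lowest fold changes of each list, and the most abundant pseudogenes. Members and lists were chosen with earlier results of these data known. A table with 4 columns of other libraries, which could not be paired with samples, and all files of other experiments were not used here. One sequence is not reported here.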

Additional observations from a re-analysis of the deposited data

How the results depend on the processing

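Of 454 log2 fold changes recomputed for the 10 members and their 28 tested transcripts, 426 kept their direction and side of the threshold, 3 gained a call, 9 lost one (all NPM1 ENST00000351986, whose log2 fold change lay between -0.74 and -0.57) and 16 changed sign, none of them called. The NOLC1 gene sum was -0.047 with protein-coding transcripts only and lay between -0.086 and 0.10 with 1 library left out. With 1 library left out, the ranges of the transcripts that changed sign were -0.28 to 0.10 for DKC1 ENST00000369550, -0.22 to 0.14 for DKC1 ENST00000620277, -0.14 to 0.016 for NCL ENST00000322723, -0.10 to 0.20 for NOLC1 ENST00000405356, -0.27 to 0.19 for NOP56 ENST00000466447 and -0.34 to 0.088 for NOP58 ENST00000478508. NCL ENST00000322723 was also 0.0025 with library-size scaling, and NOLC1 ENST00000405356 was -0.0096 with no filter. Genes called in the whole table were 15, and 28 with library-size scaling (8 lower and 20 higher, beside 8 and 7), 64 with 10 counts in every library, 169 with no filter, 107 with DESeq2, 0 with protein-coding transcripts only, 148 with the most abundant transcript only, and 1 to 21 with 1 library left out. Transcripts called were 310, and 173 with 10 counts in every library, 162 with no filter, 113 with DESeq2, and 81 to 363 with 1 library left out. Usage calls were 5, 1 with 10 counts in every library, and 1 to 5 with 1 library left out. Member genes called were 0, but 1 (NPM1) with DESeq2 and 1 (NPM1) with the most abundant transcript only. The 1 member transcript called fell to 0 with library-size scaling, 10 counts in every library, no filter, and any 1 library left out, where the calls were 0 to 0. The causes were not tested. Same-numbered libraries of the 2 groups correlated by 0.064, 0.024 and 0.031 in their deviations, and differently numbered ones by -0.074 to 0.036. These small values do not settle whether the numbers pair the samples. With the replicate number as a block, 36 genes, 427 transcripts and 4 usage genes were called, among them 0 member genes and 2 member transcripts (NPM1 ENST00000351986 and ENST00000524204). The tested MYC transcripts rest on 5 to 22 counts per library, and what difference this depth could show was not tested.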
